A study of Mus musculus with 5 samples.

Results

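The luminal layer of the mouse uterus was compared between the evening of day 4 of pregnancy and the morning of day 5 at sites away from the attached embryo. The comparison took 2 of the 5 libraries of the series, 1 from each condition, and every gene whose level averaged 1 CPM or more over the 5 libraries (CPM, counts scaled to a common library size). These were 12915 of the 23420 genes in the count table. All libraries came from wildtype C57BL/6N mice, and the other 3 were taken on day 3 morning, on day 4 morning and on day 5 morning around the attached embryo. The columns of the day 5 libraries are named Mpole for the layer away from the embryo and Ampole for the layer around it, so the pole and the distance from the embryo cannot be told apart. Day 1 is the day of the vaginal plug. RNA was amplified with the SMART-seq v.4 kit for very small inputs. The study's methods apply this kit to luminal epithelium cut out by laser microdissection. The methods also pool independent samples into each library, but describe this for control and Lif-mutant mice, and whether it holds for these wildtype libraries, like the age of the mice, is not given in the sources used here.

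The luminal epithelium lines the cavity of the uterus and is the first maternal tissue that the blastocyst touches. Under progesterone, and after a rise of oestrogen, the uterine glands release Lif, which acts on the luminal cells through Lifr, Il6st and Stat3 and makes them able to accept the embryo. After attachment, the epithelium next to the embryo is lost, while that between embryos stays as a lining that secretes, absorbs and keeps its barrier.

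Total counts ranged from 15334674 to 19529491 over the 5 libraries, with 16560409 on day 4 evening and 16702914 on day 5 away from the embryo. The features Rn45s and Lars2, which carry ribosomal RNA reads, held 20.4% of the evening counts and 15.1% of the day 5 counts. Each condition had 1 library, so no difference below has a replicate check and none has a p-value. The differences compare these libraries rather than the conditions. A gene is said to have risen or fallen where its CPM changed by more than 2-fold (beyond 1 in log2, TMM scaling, prior count 2) and the ratio of the counts differed from 1 by its exact 95% interval (Clopper-Pearson). These intervals cover counting error only. The floor of 3 counts equalled 0.19 CPM in the evening library and 0.161 CPM in the day 5 library. Every log2 value below is day 5 away minus day 4 evening unless another pair is named.

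From evening to the next morning, 1646 genes rose (12.7% of those tested) and 1619 fell (12.5%). The remaining 9650 genes passed neither limit, and the median log2 change over all genes was 0.01, with quartiles of -0.50 and 0.51. Past 4-fold, 571 genes rose (4.42%) and 583 fell (4.51%). Scaling by column totals moved the median change of all genes to 0.23 in log2, and then 63.9% of the calls were rises (2207 against 1246), compared with 50.4% under TMM. Totals without Rn45s and Lars2 gave 1960 rises and 1385 falls (58.6% rises). Of the falls named below, Cfi, Egr1, Fzd6, Gsr, Irf9, Krt8, Lamp2, Ldha, Muc1, Stra6 and Wwp1 did not pass the limit with column totals. Close to the limit, 192 genes that rose and 171 that fell lay within 0.1 of it in log2, while 248 and 222 lay as close to it on the other side. Among the tested genes, 74 were at 0 in the evening library and counted on day 5 away, and 85 were at 0 only on day 5 away. Across genes, Pearson's r of log2 CPM was 0.87 between the evening and day 5 away, 0.94 between the evening and day 4 morning, and 0.84 between the 2 sites of day 5. These values share libraries, and genes are not independent replicates.

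**Figure D1:**
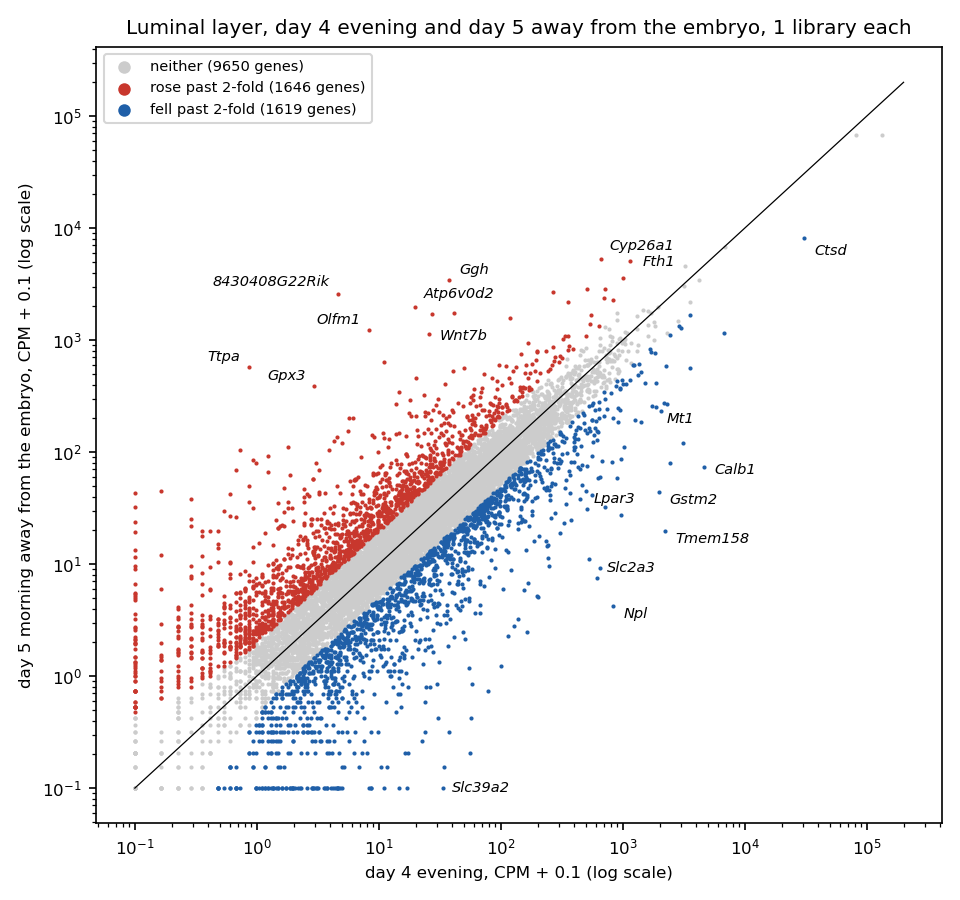
CPM of each tested gene on day 4 evening (x) and on day 5 morning away from the embryo (y), both plus 0.1 on log scales, with 1 library on each axis. Red points are the 1646 genes that rose, blue points the 1619 that fell, and the black line marks equal CPM. Ttpa, Olfm1 and Ggh lie far above the line, and Npl, Tmem158 and Calb1 far below it.

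Markers of the epithelium were present in both libraries. Epcam, the surface adhesion protein of epithelia, had 11760 counts on day 4 evening and 11848 on day 5 away (log2 change -0.23). Cdh1, E-cadherin, had 9708 and 8029 (-0.51), and the claudin Cldn3 had 28395 and 26917 (-0.31). All 18 listed luminal markers were counted, and their summed level was 8519 CPM in the evening and 6305 CPM on day 5 away. Among them 6 fell (33.3%, against 12.5% of all genes), namely Krt19, Lpar3, Sprr2f, Elf3, Muc1 and Krt8. Another 2 rose (11.1%, against 12.7%), among them Cldn4, and 10 passed neither limit. The median log2 change was -0.49, with a 95% interval over the genes of the list from -1.15 to -0.09. By direction alone, 14 of the 18 were lower on day 5 away and 4 were higher. In such bulk libraries fewer cells of a type and less RNA per cell cannot be told apart.

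Markers of other cell types were low. The 14 stromal markers summed to 651 CPM in the evening and 618 CPM on day 5 away, and the 12 immune markers to 432 and 449 CPM. Of the stromal genes, Hand2 and Pcolce rose and none fell. Early decidua markers went from 179 to 242 CPM, endothelium from 42.3 to 52.3 CPM, smooth muscle from 24.4 to 31.8 CPM and glands from 2.02 to 4.13 CPM. Of the endothelial genes Tek rose from 3.03 to 25.3 CPM, whereas 5 of 7 were lower and the median log2 change was -0.65. Red blood cell genes summed to 11.9 CPM in the evening and 2.95 CPM on day 5 away. Embryo and trophoblast markers summed to 8.28 and 6.22 CPM, with Pou5f1, Nanog, Gata4 and Cdx2 at 0 in both libraries, and reached 142 CPM around the embryo. The part of these cells in the changes below was not tested.

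**Figure D2:**
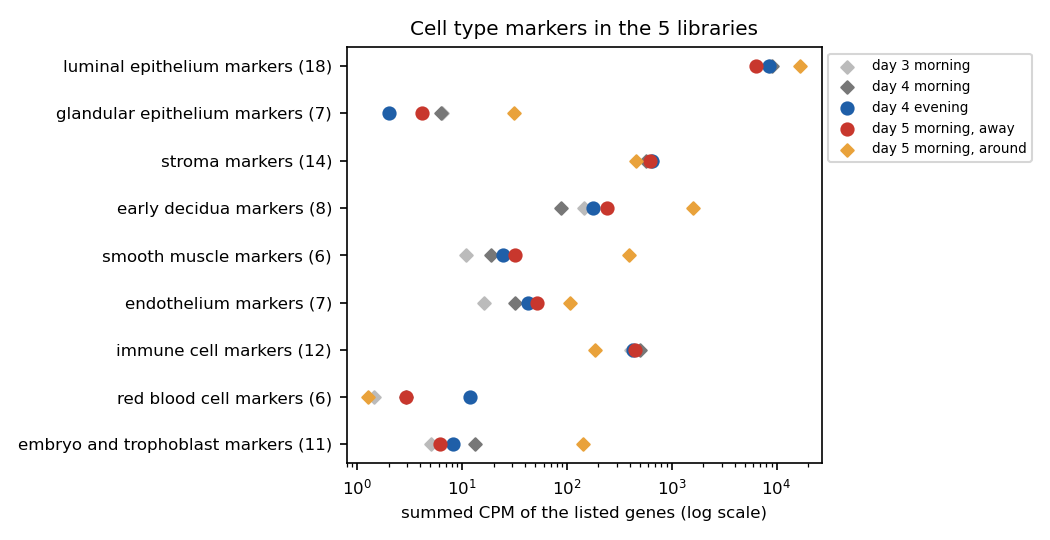
Summed CPM (log scale) of the marker genes of 9 cell types in each of the 5 libraries, with the number of listed genes in parentheses. The stromal and immune sums of day 4 evening (blue) and day 5 away (red) lie close together, while the embryo and decidua sums stand apart in the library around the embryo (orange).

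The largest rises included genes of vitamin handling, the lysosome and secreted proteins. Ttpa, which carries vitamin E between membranes, was counted 89 times on day 3, 0 times on day 4 morning and 12 times that evening, against 10670 times on day 5 away and 1418 times around the embryo. Its level on day 5 away was 754-fold that of the evening (log2 interval 8.75 to 10.51). It was high in both day 5 libraries and higher in the one away from the embryo. 8430408G22Rik, whose product is known as Depp1, had 9, 5, 71, 47572 and 7391 counts in the same order of libraries, a log2 change of 9.11. Ggh, which removes glutamate residues from folates in the lysosome, had 630, 347, 597, 63628 and 13298 counts and a log2 change of 6.49. In both of these genes the day 5 away library was the highest of the 5.

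Olfm1, an extracellular glycoprotein, had 194, 119, 130, 22732 and 23449 counts, so the day 5 libraries were alike and far above the other 3 (log2 change 7.19). Atp6v0d2, a subunit of the proton pump that acidifies lysosomes, had 46, 119, 312, 36930 and 26157 counts and a log2 change of 6.64. Gpx3, the secreted glutathione peroxidase, had 228, 114, 45, 7208 and 836 counts and a log2 change of 7.03. Prss35, a member of the serine protease family, had 0, 0, 10, 1941 and 100 counts, so nearly all of its counts came from day 5 away. Hal, which degrades histidine, was counted 9 times in the evening and 1277 times on day 5 away, and Atp13a4, a P5-type ATPase, 13 and 1588 times.

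For 6 of the 15 largest rises the evening library held 3 counts or fewer. Kng1, the kininogen precursor of bradykinin, was at 0 in the 3 libraries before day 5, had 805 counts on day 5 away and was at least 228-fold higher there. Dio3os, an antisense transcript of the Dio3 locus, had 0 counts in the evening and 595 on day 5 away, at least 168-fold higher. The strand setting of the counting is not given in the sources used here, so its reads may include those of overlapping genes. Tmem154 had 0 and 442 counts, at least 125-fold higher. Pnp2, a copy of the purine nucleoside phosphorylase Pnp, had 1 and 837 counts, with a log2 ratio between 6.99 and 14.78. The esterase Ces2b had 3 and 703 counts (6.08 to 9.92), and the cytochrome P450 Cyp2s1 had 3 and 472 counts (5.50 to 9.34).

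Several of the largest falls were in genes abundant in each library before day 5. Npl, an enzyme of sialic acid breakdown, was counted 15787 times on day 3, 31108 times on day 4 morning and 13177 times that evening, against 77 times on day 5 away and 63 times around the embryo, a log2 change of -7.62. Tmem158, a membrane protein first described in Ras-induced senescence, had 13179, 48286, 35083, 369 and 165 counts and a log2 change of -6.80. Fxyd4, a regulator of the sodium pump, had 8472, 19877, 10203, 169 and 138 counts and a log2 change of -6.14. In each of these genes both day 5 libraries lay far below the other 3.

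Slc2a3, the high-affinity glucose transporter Glut3, had 2393, 8768, 9640, 138 and 2944 counts and fell by 6.34 in log2, so the library away from the embryo was the lowest of the 5. Pthlh, the parathyroid hormone-like hormone, had 291, 54, 375, 4 and 23123 counts and fell by 6.18, and the library around the embryo was the highest of the 5. Slc39a2, a zinc importer, had 935, 946, 532, 0 and 74 counts and was at least 209-fold lower on day 5 away than in the evening. Scara5, a receptor for ferritin, had 896 counts in the evening and 6 on day 5 away. The transcriptional repressor Ripply3 had 1248 and 12, the monocarboxylate transporter Slc16a12 had 917 and 14, the growth factor gene Fgf1 had 478 and 6, the esterase Ces1d had 592 and 4, and the unnamed gene 4833423E24Rik had 1598 and 21. Counts of 3 or fewer remained on day 5 away for Arl14 (881 in the evening and 2, log2 ratio -12.07 to -7.16), Spink8 (543 and 1, -14.63 to -6.84) and Meig1 (357 and 3, -9.42 to -5.57).

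**Figure D3:**
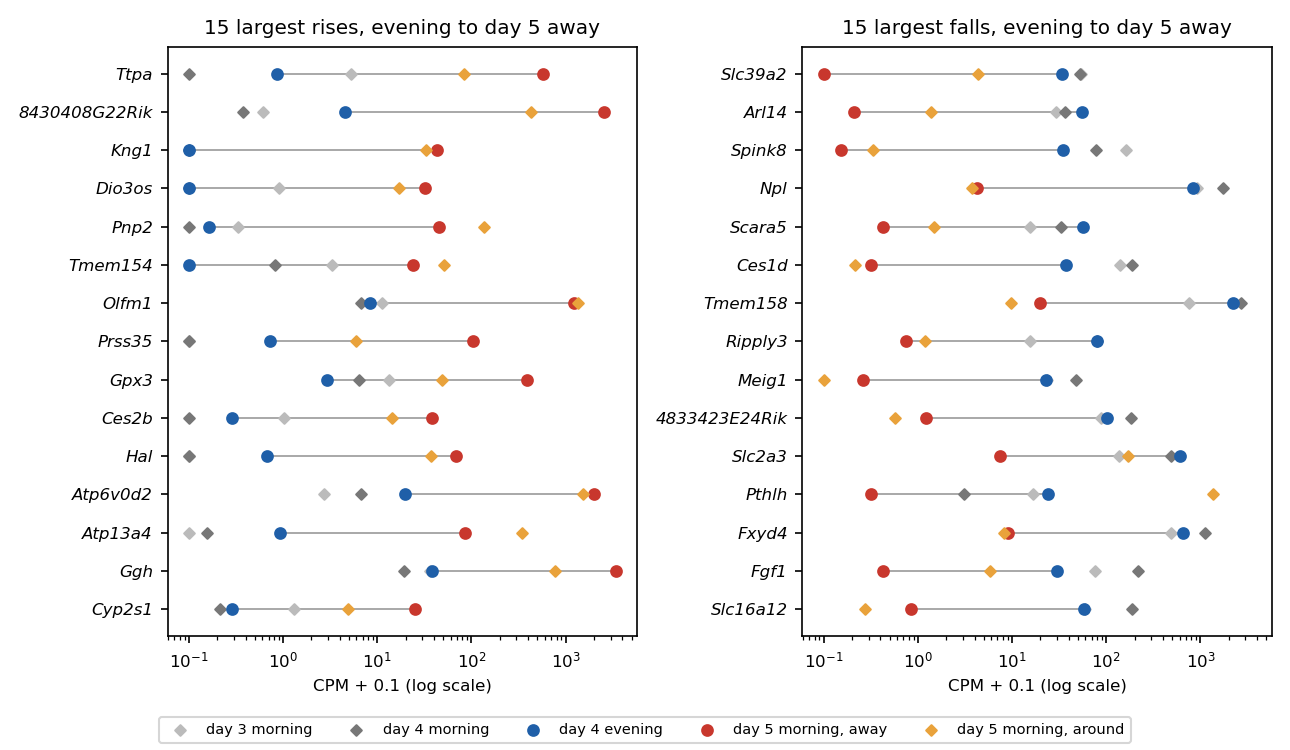
CPM plus 0.1 (log scale) in each of the 5 libraries for the 15 genes with the largest rise (left) and the 15 with the largest fall (right) among genes that averaged 10 CPM or more in the pair compared. Grey lines join day 4 evening (blue) to day 5 away (red), and diamonds show the other 3 libraries. Pthlh and Slc2a3 fell from evening to day 5 away, yet their level around the embryo (orange) lies far above that of day 5 away.

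Of the 30 genes, 3 lay close together on chromosome 4. By the table's coordinates (GRCm38), Atp6v0d2 is at chr4:19876838-19922566, Ttpa at chr4:20008428-20030785 and Ggh at chr4:20042052-20066111. Ttpa was separated from Ggh by 11267 bases and from Atp6v0d2 by 85862 bases. No other pair among the 30 lay within 200 kb of each other. Within 500 kb of these 3 genes the table held 10 genes, of which 6 were tested. Of the neighbours tested, Wwp1, a ubiquitin ligase, was just past the limit (log2 change -1.10), while Cpne3 (0.19) and Rmdn1 (-0.71) passed neither limit. Slc7a13 and 4930480G23Rik, the latter between Atp6v0d2 and Ttpa, had 0 counts in both libraries. This stretch was looked at after the values had been seen.

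By amount of RNA, Ggh, 8430408G22Rik and Atp6v0d2 were also among the 15 largest gains in CPM, and Tmem158 among the 15 largest losses. Other genes with large gains or losses are described here, chosen after their values were seen. Cyp26a1, which breaks down retinoic acid, had 605, 432, 10542, 99164 and 103074 counts, from 666 CPM in the evening to 5316 CPM on day 5 away. It was the gene with the largest gain in CPM, and its counts in the evening already stood above those of both mornings before. Fth1, the heavy chain of the iron store ferritin, had 18016 counts in the evening and 93915 on day 5 away (log2 change 2.14). Xbp1, a transcription factor of secretory cells, had 8055 and 53271 (2.49). Sult1d1, a sulfotransferase, had 15943 and 66503 (1.82), and Adi1, of methionine salvage, 4271 and 50545 (3.33). The secreted Prap1 had 428 and 31970 (5.98), the gap junction protein Gjb2 649 and 32323 (5.40) and the binding protein Igfbp3 1878 and 29605 (3.74).

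Ctsd, the lysosomal protease cathepsin D, had 191723, 587746, 486509, 151094 and 106275 counts and showed the largest loss in CPM after Rn45s, from 30751 in the evening to 8100 on day 5 away. Per kilobase of its length it went from 15738 to 4146 RPKM. Calb1, a calcium-binding protein, had 94960, 143278, 73114, 1357 and 306 counts and fell by 5.99 in log2. Tmsb4x, which binds actin monomers, had 106467 counts in the evening and 21402 on day 5 away, Nudt19 had 48792 and 2249, Plekhs1 had 38767 and 1494, and the ubiquitin ligase Rnf128 had 56095 and 10536. All of these fell past 4-fold except Ctsd, whose log2 change was -1.92.

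Genes of the progesterone response were mixed. Here and for the lists below, the shares of all genes to set beside a count are 12.7% for rises and 12.5% for falls. Of 14 tested genes of the receptor and its epithelial targets, 6 fell and 2 rose. The median log2 change was -0.60, with a 95% interval over the genes of the list from -2.42 to 0.84. Pgr, the progesterone receptor, had 7211, 2988, 2259, 497 and 605 counts and fell by 2.42. Lrp2 (16302 in the evening and 2054 on day 5 away), Gata2 (4762 and 1600), Fkbp5 (1528 and 540) and Sox17 (28768 and 14211) also fell. Gpr64 and Cyp26a1 rose, while Ihh, the hedgehog ligand through which the epithelium signals to the stroma, had 8627 and 12567 counts and a log2 change of 0.31. Esr1, the oestrogen receptor, had 1819 and 2458 counts (0.20). Of 9 genes of the oestrogen response C3, Lcn2 and Greb1 rose, and Muc1 and Clca3 fell.

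Of 27 tested genes of the Lif receptor, Stat and feedback list, 6 rose (22.2%, against 12.7% of all genes) and 7 fell (25.9%, against 12.5%). Lifr had 1155, 1273, 2869, 11388 and 8333 counts and a log2 change of 1.75, while its partner Il6st had 617 in the evening and 411 on day 5 away (-0.82). Stat3 had 4312 and 6678 (0.39), and neither Il6st nor Stat3 passed the limit. Socs3, a feedback inhibitor that Stat3 induces, had 58, 174, 1426, 432 and 2767 counts and fell by 1.96, so its level away from the embryo lay between those of day 4 morning and day 4 evening. Il6 had 267 counts in the evening and 0 on day 5 away, at least 105-fold lower. Cish (761 and 123), Jak2 (8002 and 2740) and Ctf1 (1753 and 247) fell as well, while Socs2 (1136 and 3066), Cebpb (3975 and 10262) and the cytokine Clcf1 (191 and 1084) rose. Lif itself had 0 counts in the evening, 2 on day 5 away and 304 around the embryo.

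Several ligands changed from evening to morning. Among 29 tested Wnt pathway genes 7 rose and 3 fell. Wnt7b had 668, 115, 409, 21271 and 21932 counts, a log2 change of 5.46, and both day 5 libraries were high. The other Wnt ligands of the luminal layer, Wnt7a (2110 and 3382), Wnt11 (6166 and 10016) and Wnt5a (3845 and 6375), had log2 changes of 0.44, 0.46 and 0.49 and passed no limit, and the target gene Axin2 had 70 and 62 counts. Kremen1, Nkd1, Dkk2, Znrf3, Tcf7 and Fzd7 rose, and the receptors Fzd5, Fzd6 and Lgr4 fell.

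In the Fgf list 6 of 16 rose and 2 fell. Fgf9 had 290 counts in the evening and 3945 on day 5 away (log2 change 3.52), whereas Fgf18 had 233 and 11 and fell by 4.40. The receptor Fgfr2 had 8327 and 6687 (-0.55). Of the Bmp, Tgfb and activin list 7 of 26 rose and 3 fell. Id1 (437 in the evening and 4419 on day 5 away) and Id3 (460 and 4875), which Bmp signals induce, and the inhibitor Smad6 (290 and 1286) rose, and Bmp2 had 61 and 140 counts (0.94). The activin subunit Inhbb had 0 and 99 counts, at least 28-fold higher, and the receptor Bmpr1b had 130 and 0, at least 51-fold lower.

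Of 12 EGF family genes 5 rose and 1 fell. Hbegf had 408, 134, 218, 876 and 5444 counts and rose by 1.76 in log2. Btc (70 and 287) and Tgfa (185 and 818) rose, and so did the receptor Erbb3 (179 and 917), while Areg had 1004 in the evening, 662 on day 5 away and 48285 around the embryo, and Ereg 47, 50 and 14198. The values of both day 5 sites are set beside the same evening library. In the Notch list 3 of 13 rose and 3 fell, among them Hey1 (151 and 864) upwards and Notch1 (1041 and 461) downwards.

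Interferon-stimulated genes, which block viral growth and respond through Stat2 and Irf9, had the largest share of falls among the 45 lists of gene function. Of 37 tested genes 22 fell and 4 rose, where 12.5% of all genes fell, and the median log2 change was -1.20. Scaling by column totals left 18 falls and 7 rises and a median of -0.98. Irf7, the factor that amplifies the response, had 2875, 3782, 2490, 448 and 101 counts and fell by 2.71. Isg15, a ubiquitin-like modifier, had 1268, 946, 1408, 254 and 55 counts and fell by 2.70. In both genes the 3 libraries before day 5 lay above both of day 5. Ifit1 (6242 in the evening and 2055 on day 5 away), Ddx58, the sensor RIG-I (4643 and 1332), Usp18 (1573 and 419) and Irf9 (2009 and 1081) fell too. Against this, Ifit3 had 314 and 1527 counts, Gbp2 622 and 2570, Oas2 475 and 1179 and Cmpk2 248 and 642, and these 4 rose. Ifit3 had 12 counts around the embryo. Against the same evening library, the median of the list around the embryo was -2.20.

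The promoters of Isg15, Ifit1 and Ifit3 are shown because the first 2 genes fell and the third rose while all 3 hold the same interferon-type motif. They are RefSeq sequences of build GRCm38.p6, 5′ to 3′ on the gene's strand, from 250 bases before to 50 after the transcription start, and capitals mark each match, on either strand, of GAAA and GAAA with 2 bases of any kind between them. Isg15 is at chr4:156200769-156201068 on the minus strand with 3 overlapping matches, Ifit1 at chr19:34640639-34640938 and Ifit3 at chr19:34583279-34583578, both on the plus strand with 2 matches each.
Isg15: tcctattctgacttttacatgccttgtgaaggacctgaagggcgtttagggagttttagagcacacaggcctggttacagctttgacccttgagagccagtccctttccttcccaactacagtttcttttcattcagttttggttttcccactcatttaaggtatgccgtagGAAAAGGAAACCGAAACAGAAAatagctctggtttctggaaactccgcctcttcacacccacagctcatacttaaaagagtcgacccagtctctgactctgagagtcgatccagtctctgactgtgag
Ifit1: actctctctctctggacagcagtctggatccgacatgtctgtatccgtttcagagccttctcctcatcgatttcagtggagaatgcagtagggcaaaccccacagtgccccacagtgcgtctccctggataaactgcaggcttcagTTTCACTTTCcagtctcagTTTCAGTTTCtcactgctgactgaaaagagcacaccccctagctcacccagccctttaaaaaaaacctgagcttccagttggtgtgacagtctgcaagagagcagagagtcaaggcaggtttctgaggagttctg
Ifit3: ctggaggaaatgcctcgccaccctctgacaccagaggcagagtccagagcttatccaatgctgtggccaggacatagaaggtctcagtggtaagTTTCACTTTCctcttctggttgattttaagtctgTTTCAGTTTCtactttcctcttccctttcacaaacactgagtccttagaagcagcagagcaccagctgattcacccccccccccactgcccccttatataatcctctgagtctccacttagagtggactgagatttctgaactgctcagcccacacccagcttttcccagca

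This motif was added after the values had been seen and stands in 3.44% of the 32851 promoters of the table and in 379 of the 10293 tested genes with a promoter (3.68%). It was found in 16 of the 27 interferon-stimulated genes with a promoter. A promoter was at hand for 13 of the 22 genes that fell and for 14 of the 15 that did not. Among these the motif was found in 5 of 13 that fell and in 11 of 14 that did not fall. The genes without a promoter, most of them falls, could not be searched. None of the 9 largest rises and 8 largest falls with a promoter held it. In all, 7 motifs were searched on both strands. The share of all promoters with the Stat-type motif TTCNNNGAA was 8.3%, and the AP-1-type motif TGANTCA was found in 7.81%. The cyclic AMP type TGACGTCA was found in 1.79%, the E-box CACGTG in 7.15%, the TATA-type motif TATAAA in 13.6% and the metal-type motif TGCNCNC, also added later, in 51%. Among the largest rises the AP-1-type motif stood in 3 of 9 promoters and the E-box in 0 of 9, and among the largest falls they stood in 0 of 8 and 3 of 8. Over all genes past 4-fold this difference was not seen: the AP-1-type motif stood in 10.5% of promoters of rises and 11.7% of those of falls, and the E-box in 8.7% and 10.5%. Of the 10293 tested genes with a promoter, 6.64% held the AP-1-type motif and 11.7% the E-box. A match is a description of these letters and not of a bound site.

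Of 16 tested genes of the fibrinogen, complement and acute phase list 10 rose and 1 fell, where 12.7% of all genes rose. The median log2 change was 2.01, with a wide 95% interval over the genes of the list (-0.18 to 5.27). The fibrinogen chains Fga (0, 0, 9, 490 and 3621 counts) and Fgg (0, 0, 12, 925 and 4571) were at 0 on both mornings before and rose by 5.27 and 5.83. Chi3l1, a chitinase-like protein, had 14 counts in the evening and 1498 on day 5 away, and Serpina3n had 0 and 123, at least 34.8-fold higher. The complement shield Cd55 rose, with 3154 and 14553 counts. C3, the central complement protein, had 141 and 699, the clotting starter F3 had 932 and 5472, and Cp, the copper-carrying ceruloplasmin, had 771 and 4766. Cfi, the enzyme that cleaves C3b, fell (253 and 144, log2 change -1.04), but passed no limit with column totals (-0.82) or with totals without Rn45s and Lars2 (-0.91).

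Of 20 cytokine and chemokine genes 7 rose and 6 fell. The receptor Il17rb had 2538, 8305, 11350, 600 and 125 counts and fell by 4.47. Il34 (29 in the evening and 589 on day 5 away) and Csf1 (77 and 387), both ligands of the macrophage receptor Csf1r, rose, as did Il1a (41 and 761), Cxcl14 (487 and 2549) and Il15 (98 and 368). Csf1r itself had 112 and 170 counts and Ptprc, the general leukocyte marker, 250 and 250.

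In the metal list 12 of 27 tested genes rose and 4 fell, with a median log2 change of 0.62. Genes of iron handling were among the rises: Fth1, the transferrin receptor Tfrc (556 in the evening and 2867 on day 5 away), the exporter Slc40a1 (214 and 578), the metalloreductases Steap1 (21 and 201), Steap2 (100 and 655) and Steap4 (71 and 435), and Cp. The ferritin light chain Ftl1 had 14616 and 13840 counts and a log2 change of -0.32. Genes of zinc went both ways. The zinc transporters Slc39a8 (2106 and 10679), Slc39a6 (1525 and 5533), Slc39a4 (6150 and 15463) and Slc39a13 (113 and 409) rose, and Slc39a2 and Slc39a14 (2669 and 409) fell. The metallothioneins, which bind zinc and copper, fell, with 9906, 26355, 27493, 4817 and 18921 counts for Mt1 and 3196, 7681, 7272, 1419 and 4703 for Mt2. For both the day 5 away library was the lowest of the 5.

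Of 40 tested genes of the lysosome and the vacuolar ATPase 8 rose (20%, against 12.7% of all genes) and 4 fell (10%, against 12.5%), and the median log2 change was 0.11. Ctsc (549 in the evening and 7496 on day 5 away), Neu1 (1321 and 5044), Ctsz (746 and 2639), Lgmn (2030 and 5275) and Ctsl (1483 and 3846), which are degrading enzymes of the lysosome, rose beside Atp6v0d2. Ctsd, Grn (8772 and 3626), Lamp2 (38696 and 20800) and Laptm4b fell. Of the proton pump, Atp6v0a4 (171 and 608) rose, whereas the common subunits Atp6v1a (0.67), Atp6v1b2 (0.45) and Atp6v0d1 (-0.28) passed no limit in log2 change. Of 25 autophagy genes 6 rose and 0 fell, namely Atg9b (13 and 587), Gabarapl1 (538 and 3353), Map1lc3b (4270 and 16308), Map1lc3a (1779 and 4709), Atg13 (366 and 1091) and Atg14 (535 and 1530).

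**Figure D4:**
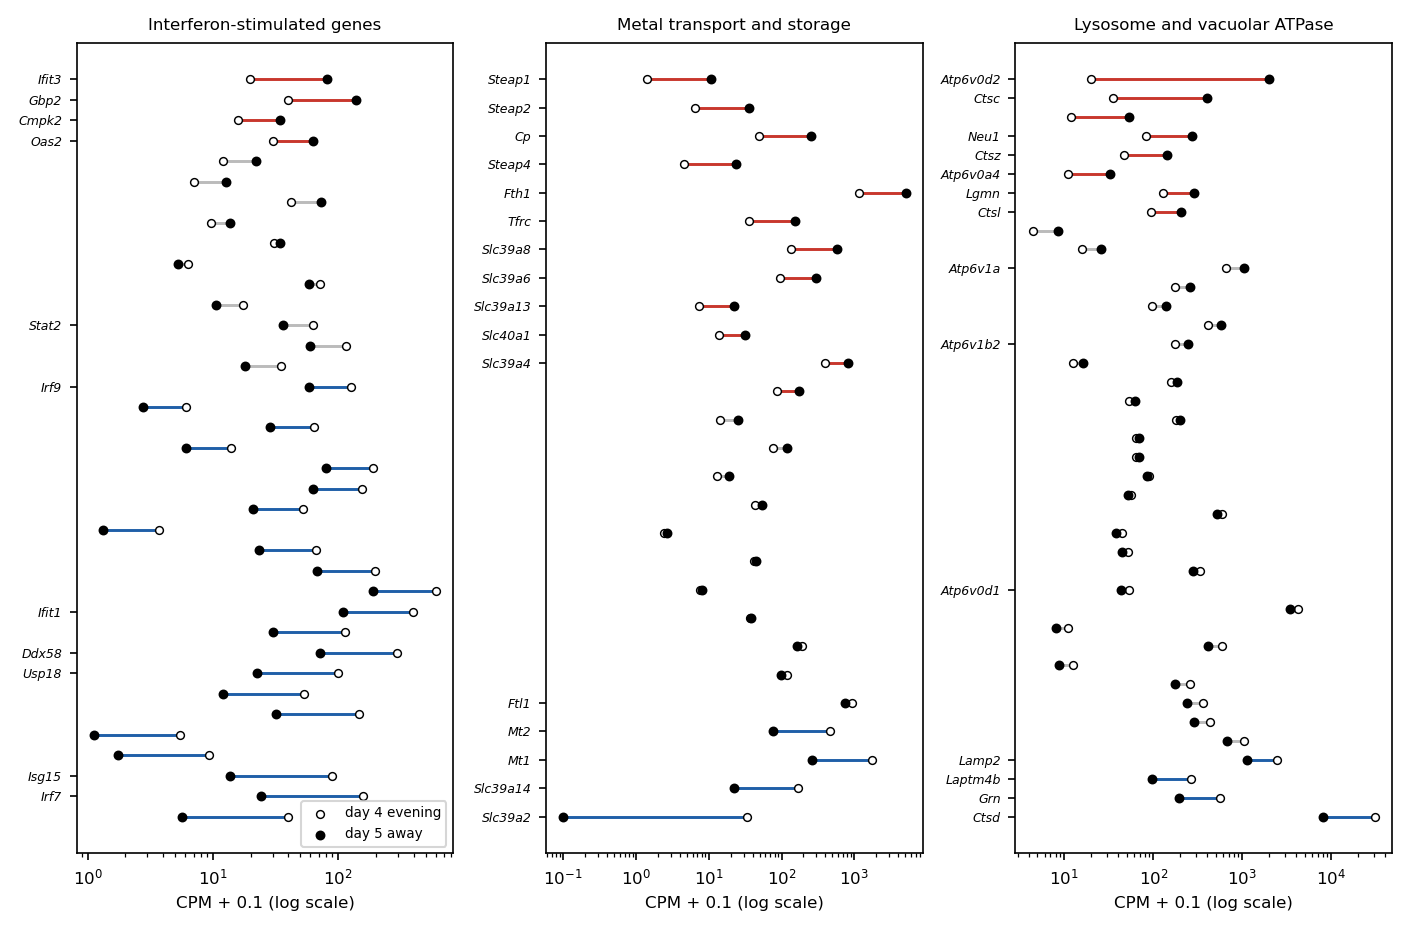
CPM plus 0.1 (log scale) on day 4 evening (open circles) and day 5 away (filled circles) for each tested gene of 3 lists, ordered by log2 change, with 1 library per condition and labels for the genes named in the text. Red lines join the values of genes that rose, blue lines those that fell and grey lines those that passed neither limit. Blue lines make up 22 of 37 in the interferon panel, and red lines 12 of 27 in the metal panel.

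Of 42 glutathione and antioxidant genes 15 fell and 8 rose. The median log2 change was -0.53, with a 95% interval over the genes of the list from -1.11 to 0.06. The median was -0.30 with column totals and -0.25 over genes averaging 5 CPM or more, of which 11 fell and 8 rose. Gstm2, a glutathione transferase, had 30204, 77141, 31070, 827 and 165 counts and fell by 5.47, and Gstm1 had 31549, 77263, 36516, 4976 and 394 and fell by 3.11. On chromosome 3 the Gstm genes stand in a row in the order Gstm5, Gstm7, Gstm6, Gstm3, Gstm2, Gstm1 and Gstm4. Of these, 5 fell, Gstm4 had 193 and 117 counts (-0.95), and Gstm5 at one end rose from 489 to 4283 (2.89). These genes resemble each other, and how reads that match several of them were counted is not given in the sources used here. Gpx2 (22467 and 9606) and Gsr (5851 and 3185) fell, while Mgst1 (11233 and 53223), Gclc (902 and 2954) and Gpx3 rose. The esterases Ces1d, Ces1e (216 and 7) and Ces1f (16 and 0), which are neighbours on chromosome 8, fell together, with the same limit on similar genes.

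Of 217 solute carriers 56 rose and 35 fell, with a median log2 change of 0.22. Among rises were Slc37a4, the glucose-6-phosphate transporter (284 in the evening and 5465 on day 5 away), the monocarboxylate transporter Slc16a1 (174 and 2488), the amino acid transporter Slc43a2 (22 and 649), the sodium-calcium exchanger Slc8a1 (50 and 1283), the inositol transporter Slc5a3 (1103 and 6926) and the phosphate transporter Slc20a1 (154 and 1215). Among falls were Slc25a48 (2433 and 108), the peptide transporter Slc15a2 (1154 and 118), the citrate transporter Slc13a5 (679 and 79), the copper transporter Slc31a2 (5745 and 1273) and the sodium-glucose transporter Slc5a1 (1527 and 419).

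Ion transport genes moved in both directions as well. Sgk1, a kinase that raises sodium uptake, had 13772, 5105, 481, 5584 and 7110 counts and rose by 3.29, so the evening library was the lowest of the 5. Slc12a2 (5613 and 20120) and the calcium channel Trpv6 (867 and 3602) rose, while Car2, a carbonic anhydrase (32615 and 4293), and Atp1b1 of the sodium pump (14864 and 6754) fell. S100g, which carries calcium like Calb1, had 51250 and 85951 counts and a log2 change of 0.51.

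Of 27 genes of glycolysis and the hypoxia response 5 rose and 7 fell. The median log2 change was 0.45, with a 95% interval over the genes of the list from -0.63 to 0.80. By direction alone, 19 of the 27 were higher on day 5 away and 8 were lower. Beside Slc2a3, falls were seen in Pfkfb3 (5996 in the evening and 461 on day 5 away), which drives glycolysis, in the hexokinase Hk2 (1519 and 335) and in Aldoc (800 and 38). Slc2a1, the widespread glucose transporter Glut1 (485 and 1351), Aldoa (4709 and 11812), Ndrg1 (3038 and 9940) and Bnip3 (1106 and 4455) rose. Ldha had 12888, 12762, 19103, 11238 and 63759 counts and fell only just past the limit. Of 22 genes of fatty acid and triglyceride synthesis 8 rose, with Me1, which supplies NADPH (142 and 2520), and Acsl4 (8505 and 26050) among them, and Fasn (3131 and 745), Dgat2 (9819 and 2808) and Scd1 (658 and 314) fell.

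Of 27 genes of folding and stress in the endoplasmic reticulum 5 rose and 0 fell. Next to Xbp1 these were Trib3 (37 in the evening and 660 on day 5 away), Chac1 (10 and 101), Atf6 (412 and 1017) and Ern1 (9 and 46). The chaperone Hspa5 had 8643 and 12185 counts (0.26) and Hsp90b1 had 11454 and 7024 (-0.94). Of 76 genes of oxidative phosphorylation 7 fell and 1 rose, with a median of -0.33 that became -0.11 under column totals. Of 77 cytosolic ribosomal proteins 1 rose and 2 fell, with a median of -0.02 under TMM and 0.20 under column totals.

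Of 32 genes of the cell cycle and DNA replication 10 rose and 2 fell, with a median log2 change of 0.62. The rises included Plk1 (539, 108, 20, 107 and 87 counts), Ccnb1 (1935, 237, 135, 510 and 351), Ccna2 (102 in the evening and 364 on day 5 away) and Birc5 (100 and 340). Mki67, the proliferation marker, had 2273, 543, 266, 777 and 240 counts and rose by 1.30. In all of these genes day 3 morning was the highest of the 5 libraries. The replication genes Mcm2, Mcm5 and Pcna had log2 changes of 0.03, 0.06 and 0.07, and Top2a (2176 and 694) and Tyms (1258 and 609) fell. The inhibitors Cdkn1c (5187 and 430), Gadd45g (3245 and 333) and Cdkn2d (559 and 200) fell, and Gadd45b (161 and 765) and Cdkn2b (62 and 259) rose.

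Of 28 genes of tight junctions and polarity 4 rose and 0 fell. Cldn10 had 51, 38, 1143, 9249 and 15981 counts and rose by 2.78, and Cldn8 (263 in the evening and 1266 on day 5 away), Cldn4 (765 and 2646) and Cgnl1 (1162 and 2746, just past the limit) rose too. With DESeq2 size factors 3 of the 4 remained past it. Of 33 integrin and basement membrane genes 7 rose and 4 fell, with the laminin chains Lama1 (5 and 109) and Lama3 (336 and 1729) and the integrin Itga1 (42 and 425) upwards and Itga9 (487 and 23), Itgb6 (395 and 86) and Itga6 (976 and 387) downwards. Among 17 tested keratins, Krt19 had 15033, 13708, 6997, 708 and 2732 counts and fell by 3.54. Of 30 mucins and glycan transferases 6 fell (20%, against 12.5% of all genes) and 3 rose (10%, against 12.7%), and the median log2 change was -0.07. Among the falls were B3gnt5 (1067 and 66), St6gal1 (1061 and 78), Fut2 (731 and 70), Gcnt3 (2865 and 514) and Gcnt1 (6483 and 2914), which extend or cap sugar chains.

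Of 30 uterine transcription factors 9 rose and 5 fell. Foxo1 had 934, 1222, 2471, 9414 and 7773 counts and rose by 1.69. Cebpa (451 in the evening and 2334 on day 5 away), Runx1 (92 and 647), Klf4 (344 and 1257) and Hmga2 (1089 and 3189) rose, and Sox9 (571 and 64) and Elf3 (5300 and 896) fell. Hoxa10 had 1371 and 1457 counts (-0.15), and Msx1, a marker of the receptive uterus, had 5452 and 3657 (-0.81). Of 17 retinoid genes 5 rose and 2 fell, and the falls were Aldh1a1, which makes retinoic acid (103 and 7), and the retinol transporter Stra6 (352 and 206). Stra6 was no longer past the limit with column totals (-0.78) or with totals without Rn45s and Lars2 (-0.87).

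Of 19 prostaglandin and lipid mediator genes 6 fell and 3 rose. Lpar3, the lysophosphatidic acid receptor needed for the spacing of embryos, had 4630, 12268, 9935, 1102 and 717 counts and fell by 3.41. Pla2g4a, which frees arachidonic acid, had 7067 in the evening and 1317 on day 5 away and fell by 2.66. Ptgs2, the inducible cyclooxygenase, had 1553, 335, 972, 67 and 8256 counts and fell by 4.05, so it was lowest away from the embryo and highest around it. Alox15, a lipoxygenase, had 29757 and 7786, whereas the prostaglandin E receptor Ptger2 (5773 and 16465) and the degrading enzyme Hpgd (30 and 98) rose.

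Of 21 immediate early genes 8 fell and 4 rose. Fos (243, 245, 1158, 360 and 1783 counts), Nr4a2 (608 in the evening and 59 on day 5 away), Dusp1 (702 and 123) and Egr1 (220 and 112) fell, and Fosb had 77 and 0, at least 30.3-fold lower. Myc (561 and 2209), Fosl2 (1936 and 5947) and Klf4 rose. Of 18 clock genes 5 rose and 3 fell, with Arntl (264 and 107), Clock (1262 and 622) and Bhlhe40 (409 and 38) downwards and Nr1d1 (240 and 694), Npas2 (1287 and 3570) and Nfil3 (3839 and 9811) upwards. Per1 (0.18), Per2 (0.39) and Cry1 (0.62) passed no limit in log2 change. The evening and the morning library differ in the hour as well as in the day, and these cannot be told apart.

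**Figure D5:**
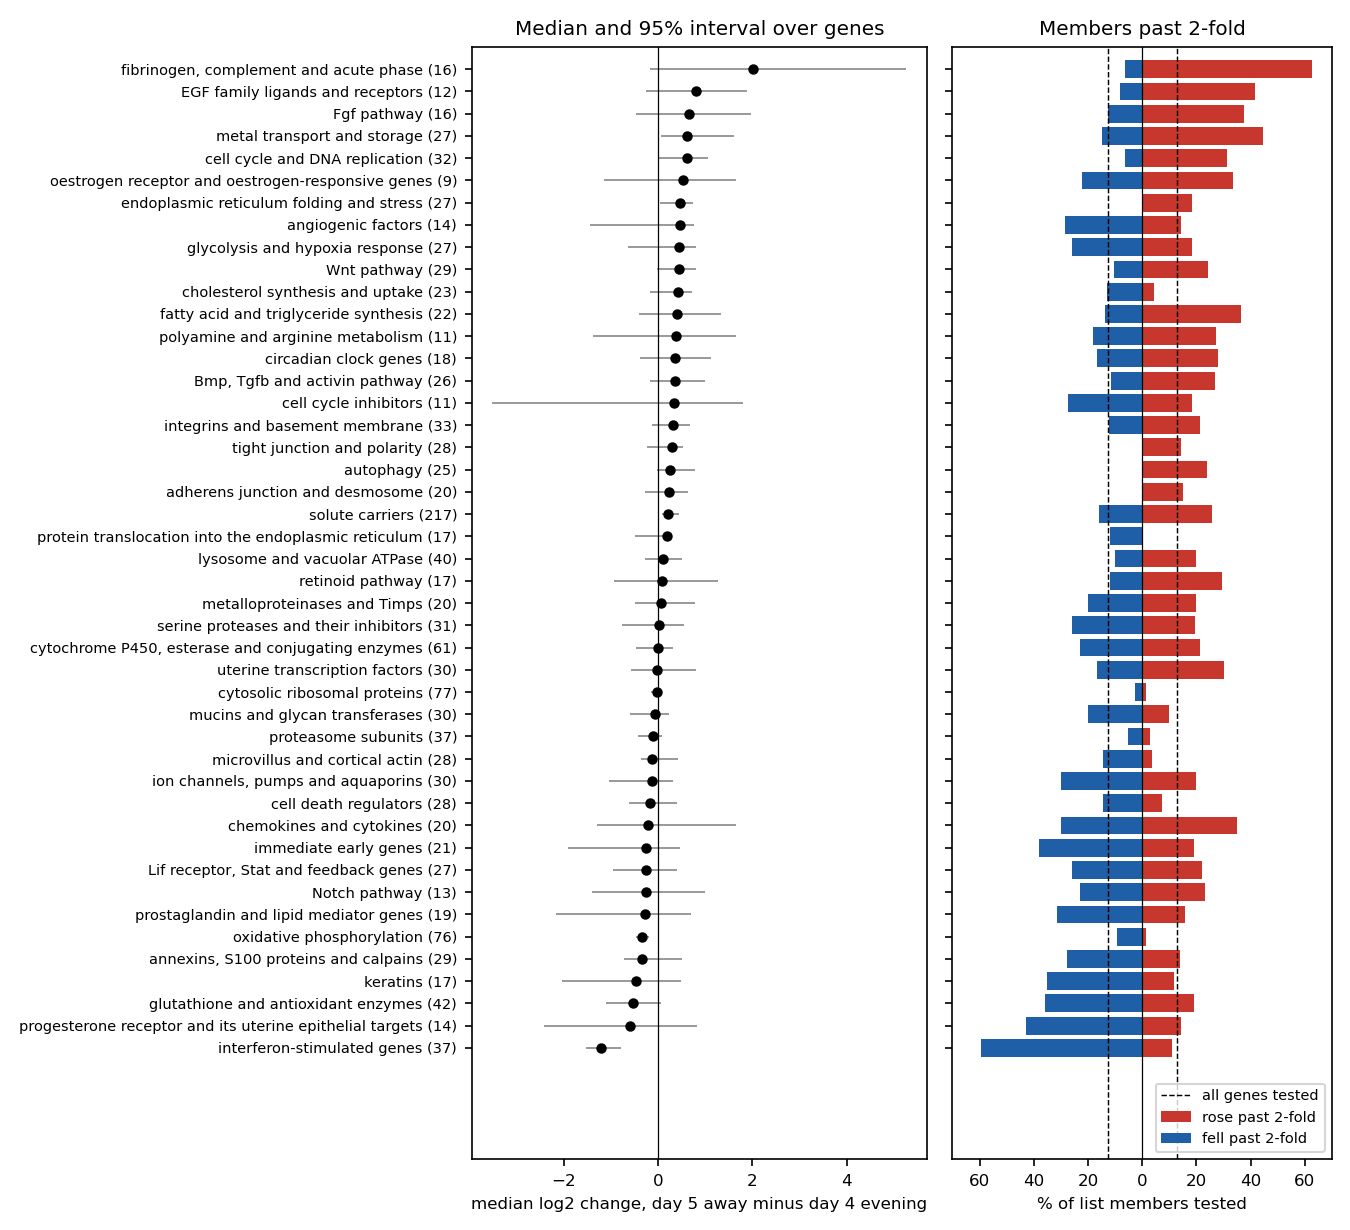
Left, the median log2 change (day 5 away minus day 4 evening) of 45 gene lists with its 95% interval over the genes of the list, which are not replicates, and the number of genes tested in parentheses. Right, the percentage of the tested genes of each list that rose (red) or fell (blue), with the shares of all genes, 12.7% and 12.5%, as dashed lines. The interferon list has the lowest median, -1.20, and the acute phase list the highest, 2.01, with an interval from -0.18 to 5.27.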

How the data were processed

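Per the labels, RNA of the luminal layer was amplified with SMART-seq v.4, and the submitters' processing notes name HISAT2, featureCounts of Subread 2.0.0 and the build GRCm38 (mm10). The authors deposited 1 table of raw read counts per gene for 5 libraries. The study's methods describe laser microdissection of luminal epithelium and the pooling of 3 independent samples per library for control and Lif-mutant mice on day 4 evening. Whether both hold for these wildtype libraries, the annotation, the strand setting and the handling of reads with several matches are not given in the sources used here.

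From the counts, CPM were computed with TMM scaling (edgeR 4.0.16 in R 4.3.3) over all 5 libraries, and genes averaging 1 CPM or more were kept. Log2 changes used a prior count of 2. With 1 library per condition, the quasi-likelihood test was not possible and no p-value is given. Exact Clopper-Pearson intervals (95%, scipy 1.17.1) and the floor of 3 counts per library cover counting error only. Lower bounds of a fold for genes at 0 in 1 library were set against that floor. The genes named were the 15 largest rises and 15 largest falls averaging 10 CPM or more in the pair, the members of the gene lists, and genes said to have been chosen after their values were seen. The members and lists were chosen with earlier results of these data known. A list's interval is an order-statistic interval over its genes. Of the table's names, 27 had been turned into dates by spreadsheet software and are not named here. The calculation was tested on simulated counts with known changes. Its pass limits applied to the run with counting error alone, so it does not measure the spread between samples. Alternatives were other scalings, another prior count, other filters, a limit of 4-fold and calls without the interval. Some members of the lists are counted but not reported by name here.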

Additional observations from a re-analysis of the deposited data

How the results depend on the processing

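With 571 rises and 583 falls, the limit of 4-fold gave fewer calls than that of 2-fold. The other alternatives gave 1638 rises and 1621 falls with DESeq2 size factors, 1960 and 1385 with column totals without Rn45s and Lars2, 2207 and 1246 with column totals, 2072 and 2041 without a filter, 1140 and 1142 with a mean of at least 5 CPM, 1669 and 1639 without the interval, and 1672 and 1648 with a prior count of 0.5. The median log2 change of all genes was 0.229 with column totals, 0.1365 with column totals without Rn45s and Lars2, and 0.024 without a filter. With column totals the medians became 0.4129 for translocation into the endoplasmic reticulum, -0.11 for oxidative phosphorylation, 0.1989 for ribosomal proteins and 0.1113 for the proteasome. Without Rn45s and Lars2 in the totals they were 0.3193 for translocation and 0.1052 for ribosomal proteins. Smooth muscle markers had 0.5845 at a mean of at least 5 CPM, over only 2 genes. That filter also moved the medians of chemokines from -0.2198 to 1.0451, of the retinoid list from 0.0735 to -0.2738, of angiogenic factors from 0.4577 to -0.033 and of glutathione genes from -0.5255 to -0.2451, all within the wide intervals over their genes. The 5 glandular markers went from 0.9509 to 2.2426 with a prior count of 0.5. That median was the value of Foxa2 and Lif, which had 0 counts in the evening and 2 on day 5 away, below the floor of 3. None of the called genes looked at changed direction under another scaling or prior count, but this outcome was fixed in advance. A call lies beyond 1 in log2, and column totals moved the median of all genes only to 0.229. A prior count in proportion to library size leaves the sign of a change as it is. The genes looked at were the list members and the 15 largest rises and 15 largest falls, and 513 of them had a call. Of these, 39 lost it with column totals, 23 with totals without Rn45s and Lars2 and 2 with DESeq2 size factors. With TMM over the pair or a prior count of 0.5, 0 lost it.

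No paired analysis was possible because each condition had 1 library, and for the same reason there was no replicate to leave out. Of the red blood cell markers 1 gene was tested, with a log2 change between -1.6123 and -1.3636 under the other scalings and prior count, and without a filter 3 were tested and 3 fell. Depth limited genes near the floor of 3 counts.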
